A study of Schmidtea mediterranea with 89 samples.

Results

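The transcripts described here are 200 of the 36035 planarian identifiers measured in the series, those that were nearly silent in freshly sorted stem cells and present after 7 days of culture on flat plates. They were chosen from measured values. An identifier was kept when it was below 0.5 CPM in all 9 libraries of uncultured cells, averaged at least 3 CPM over the 3 libraries of flat plates at 7 days, and was above 1 CPM in at least 2 of those 3. CPM is the count per 1000000 counts, taken here over the counts outside 4 very abundant identifiers that the choice left out. Of the 36031 remaining identifiers, 8741 were below 0.5 CPM in every uncultured library, and 200 of these met the other conditions, so the intended limit of 200 removed none. The other 8541 silent identifiers are used as the background for levels, and all identifiers as that for tests and for non-overlap of libraries. The levels of the 200 in uncultured cells and at 7 days on flat plates are therefore given as a description. No reported test compares those libraries with others. Where a fit covered all groups of an experiment, those libraries entered its low-count filter, scaling and estimate of variation, and so bear on its p-values.

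RNA was measured in 89 libraries of wild-type cells of the flatworm Schmidtea mediterranea, sorted by a dye for nuclear DNA (SiRNeoblasts). All cultures stood at 22 °C in medium with 20% serum. Experiment 5 held U-bottom plates with planarian tissue extract, U-bottom plates without it and flat plates without it, each at 1, 3 and 7 days, besides uncultured cells. Experiment 4 held cells on HFF1 feeders (a human foreskin fibroblast line), on MEF feeders (mouse embryonic fibroblasts) and on flat plates at 1 and 3 days, besides uncultured cells. Experiment 3 held U-bottom plates at 1 and 3 days, a soft polyacrylamide (PA) gel of 100 Pa and flat plates at 1, 2 and 3 days, and uncultured cells. Experiment 2 set AggreWell plates, in whose small wells cells collect as clusters, beside flat plates, both at 1 day. Experiment 1 held aggregates and, beside them, non-aggregating cells, both from flat cultures at 2 days. Experiments 1 and 2 had no uncultured cells. Each group had 3 libraries, except PA gel at 3 days with 2. Whether the libraries within a group are separate cultures or animals is not stated, and p-values therefore cover only the variation among the libraries at hand, which could be technical. The labels also do not say whether feeder cells were in the lysate or how the extract was made.

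Neoblasts are the stem cells of planarians and the only somatic cells of the adult animal that divide. They renew themselves and give rise to the differentiated cell types, and differentiating progeny switch on genes of gut, muscle, nerve, skin and other tissues that neoblasts do not express. The deposited tables carry identifiers without gene names, and no annotation was used here, so what the 200 transcripts encode is not given and the label of the cells could not be checked against marker genes. In such bulk libraries, fewer cells of a kind and less RNA per cell cannot be told apart.

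The total count ran from 3333661 to 42691160 per library, and from 1372794 to 29438737 outside the 4 abundant identifiers, which took 27.0% to 84.6% of the counts. Several libraries stood apart from the others of their group, and the main results they moved are given with and without them. Replicate 2 of flat plates at 1 day in experiment 4 had 110 members above 1 CPM, against 18 and 24 in replicates 1 and 3. Replicate 2 of U-bottom plates with extract at 1 day had 116, against 42 in each of the other libraries of that group. Replicate 1 of HFF1 feeders at 1 day had 52, against 6 and 11. Replicate 3 of MEF feeders at 3 days had 57, against 139 and 173, and held 8257682 counts outside the abundant identifiers, against 3209489 and 3464634. Replicate 1 of U-bottom plates at 1 day was the shallowest of all, with 1372794 such counts. The part of depth in these differences was not tested.

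At 7 days on flat plates the members were mostly low. Their means ran from 3.01 to 26.0 CPM with a median of 4.54 CPM, 19 averaged 10 CPM or more and 116 less than 5 CPM. The 10 highest held 15.0% of the summed level. All 3 libraries were above 1 CPM for 126 members and 2 of 3 for the other 74. In uncultured cells 26 members had 0 counts in all 9 libraries, and the highest level reached by any member was 0.499 CPM in experiment 3, 0.487 CPM in experiment 4 and 0.496 CPM in experiment 5. The ceiling of 0.5 CPM stood for 3.68 to 14.7 counts in these libraries, so silence here means a low level, and such counting limits cover counting error only, since no molecular identifiers are stated.

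Just inside the lower limit, SMED30010328 had 2.94, 2.01 and 4.09 CPM at 7 days on flat plates (mean 3.01). SMED30011899 had 1.02, 7.72 and 0.29 CPM (mean 3.01). Just outside, SMED30035154 had 3.71, 1.85 and 3.36 CPM (mean 2.97) and SMED30007636 had 3.07, 5.56 and 0.29 CPM (mean 2.97). The libraries of each of these 4 transcripts spread over a wider range than the gap between the means on either side of the limit.

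In experiment 5 the members appeared in steps over the days. In U-bottom plates with extract 94 members averaged over 1 CPM at 1 day, 110 at 3 days and 191 at 7 days. In U-bottom plates without extract the numbers were 33, 81 and 185, and on flat plates 15, 60 and, by the choice, all 200. The shares of the other silent identifiers above 1 CPM on average were 2.03%, 4.02% and 20% in U-bottom plates with extract, 0.855%, 2.97% and 12.5% in U-bottom plates and 0.773%, 1.94% and 7.35% on flat plates. Without its replicate 2, the number of members in U-bottom plates with extract at 1 day was 51 instead of 94.

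The summed level of the 200 was 9.72 ± 2.03 CPM in uncultured cells (SD, n = 3). In U-bottom plates with extract it was 289 ± 247 CPM at 1 day, 339 ± 32.5 CPM at 3 days and 2717 ± 80.9 CPM at 7 days (SD, n = 3 each). In U-bottom plates without extract it was 89.0 ± 5.34, 256 ± 57.1 and 1624 ± 537 CPM, and on flat plates 56.3 ± 20.1, 173 ± 44.8 and 1178 ± 254 CPM (n = 3 each). Without replicate 2, the 1-day sum with extract was 148 ± 28.6 CPM (n = 2). Most of the 7-day sum was thus not yet there at 3 days in any plate type, on flat plates by the choice. Single members were less regular, with group means that were higher at each later time in 110 members in U-bottom plates with extract, 119 in U-bottom plates and 112 on flat plates.

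**Figure D1:**
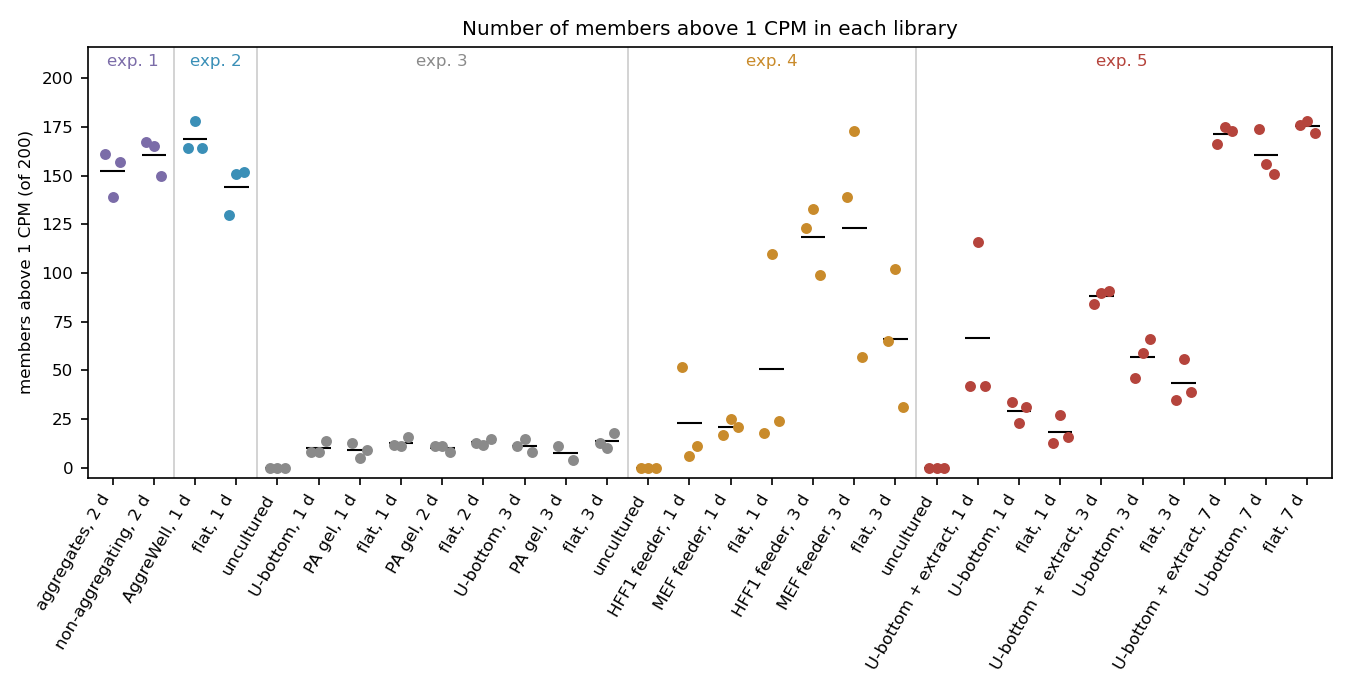
Number of the 200 members above 1 CPM (vertical axis) in each library (points) of the 30 groups, with the group mean as a bar; colours mark the experiments. All libraries of uncultured cells are at 0 and the flat libraries at 7 days are high by the choice of members. Experiments 1 and 2 sit between 130 and 178 at 1 and 2 days, the cultured libraries of experiment 3 stay near the bottom, and experiment 4 spreads widely within groups.

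Over time in U-bottom plates, whose libraries took no part in the choice, 50 members rose between 1 and 7 days and 0 fell at an adjusted p under 0.05 (edgeR's quasi-likelihood test with Benjamini-Hochberg adjustment). In that comparison 5.97% of all 24174 identifiers tested were called higher and 2.16% lower. In the 1-day libraries 100 of the 200 members had 0 counts throughout, and no median of fitted fold changes is given. Of the 50, 33 had 0 counts in all 3 libraries at 1 day, so their fitted fold changes depend on the fitting and are no measure of size. In 137 of the 200 members every 7-day library was above every 1-day library, against 15.0% of all identifiers with a count, and 0 were the other way, against 14.2%. Members with 0 counts throughout at 1 day could neither fall nor lie below, so both values of 0 were partly fixed beforehand. The share among the other silent identifiers was not taken. The count of calls was 26 without replicate 1 of the 1-day libraries, 12 without replicate 2 or without replicate 3, and 21 without replicate 1 of the 7-day libraries. The 198 tested had passed the low-count filter partly through the flat libraries at 7 days, so the count over them is a description of these members and supports no statement on all 200. Fitted on these 2 groups alone, 93 of 123 members had an unadjusted p under 0.05 (edgeR), 75.6% against 27.7% of all identifiers. In that fit a member could pass the filter through the 7-day libraries alone, which favours small p-values. The share is therefore a description of these members and no separate test of a rise.

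In U-bottom plates with extract, 51 members rose between 1 and 7 days and 0 fell (edgeR, adjusted p under 0.05), against 9.62% of all identifiers called higher and 10.5% called lower. The limit from the low-count filter holds here too. Fitted on these 2 groups alone, 98 of 157 members had an unadjusted p under 0.05 (edgeR), 62.4% against 34.1% of all. Members could pass that filter through the 7-day libraries alone here too, so this share is likewise a description. Every 7-day library was above every 1-day library in 123 members, against 15.3% of identifiers with a count. Here 19 of the 51 had 0 counts at 1 day. Without replicate 2 of the 1-day libraries, 53 members rose and 147 did not overlap, against 18% of identifiers with a count. The number was 20 without replicate 1 and 16 without replicate 3 of the 1-day libraries. The calls overlapped in part with those of plates without extract. They shared 22 members, 43.1% of the list with extract and 44.0% of the list without it, and 79 members were in either list. The overlap of the calls over all identifiers was not taken, so these shares show no trait of the members. The difference between the 2 changes, tested as an interaction chosen after the data were seen, was called for 0 members, with the smallest adjusted p at 0.0855 (edgeR), where 1.51% of all identifiers were called. At an unadjusted p under 0.05 there were 19 members, 9.6% of those tested, against 13.8% of all identifiers. Without replicate 2 of the 1-day libraries with extract, 1 member was called (adjusted p = 0.0472, edgeR).

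SMED30022872 had the highest mean at 7 days on flat plates. It had 109, 109 and 158 CPM in the 3 libraries of U-bottom plates with extract at 7 days, against 0.27, 11.3 and 3.04 CPM at 1 day. In U-bottom plates without extract it had 74.2, 36.3 and 53.7 CPM at 7 days, against 4.37, 6.96 and 2.61 CPM at 1 day. The days did not overlap in either plate. It rose by 5.58 on the log2 scale with extract (SE 1.12, adjusted p = 0.000409, edgeR), a call kept without any 1 library, and by 3.96 without extract (SE 1.06, adjusted p = 0.0146, edgeR). The call without extract was lost without replicate 1 of the 1-day libraries (adjusted p = 0.0554, edgeR) and without replicate 3 (0.0831). SMED30022872 was already above 1 CPM in 5 of these 6 libraries of 1 day.

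SMED30014002 had 36.2, 70.2 and 12.7 CPM at 7 days with extract, against 0, 1.92 and 0 CPM at 1 day, and rose by 6.82 on the log2 scale (SE 1.89, adjusted p = 0.0103, edgeR). In U-bottom plates it had 67.1, 3.47 and 24.8 CPM at 7 days, against 0, 0.228 and 0 CPM at 1 day, and rose by 8.59 (SE 2.22, adjusted p = 0.0112, edgeR; 0.0709 without replicate 3 of the 1-day libraries). Its 7-day libraries differed widely among themselves and still lay above all those of 1 day. SMED30028000 had 70.3, 26.0 and 8.4 CPM at 7 days with extract, against 0, 2.98 and 0 CPM at 1 day (log2 fold change 6.00, SE 1.58, adjusted p = 0.00736, edgeR). In U-bottom plates without extract it had 29.1, 41.8 and 36.5 CPM at 7 days, against 2.91, 0.913 and 0 CPM at 1 day, and rose by 5.58 (SE 1.62, adjusted p = 0.0289, edgeR). The call without extract was lost without replicate 2 (0.116) or replicate 3 (0.12) of the 1-day libraries. The 7-day libraries with extract were thus more scattered for this transcript than those without.

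SMED30033887 had 48.8, 62.7 and 17.4 CPM at 7 days with extract, against 0, 0 and 3.04 CPM at 1 day, and rose by 6.31 (SE 1.78, adjusted p = 0.0117, edgeR; 0.0508 without replicate 1 of the 1-day libraries). Without extract it had 56.5, 16.3 and 26.6 CPM at 7 days, against 0, 0 and 3.92 CPM at 1 day, and did not pass (adjusted p = 0.0695, edgeR). SMED30024472 had 26.0, 42.5 and 27.5 CPM at 7 days with extract, against 7.28, 12.7 and 2.07 CPM at 1 day (adjusted p = 0.145, edgeR). The groups did not overlap, and the difference missed the threshold. SMED30024206 had 4.65, 54.2 and 28.0 CPM at 7 days with extract, against 2.16, 22.6 and 7.6 CPM at 1 day, and these overlapped (adjusted p = 0.23, edgeR).

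**Figure D2:**
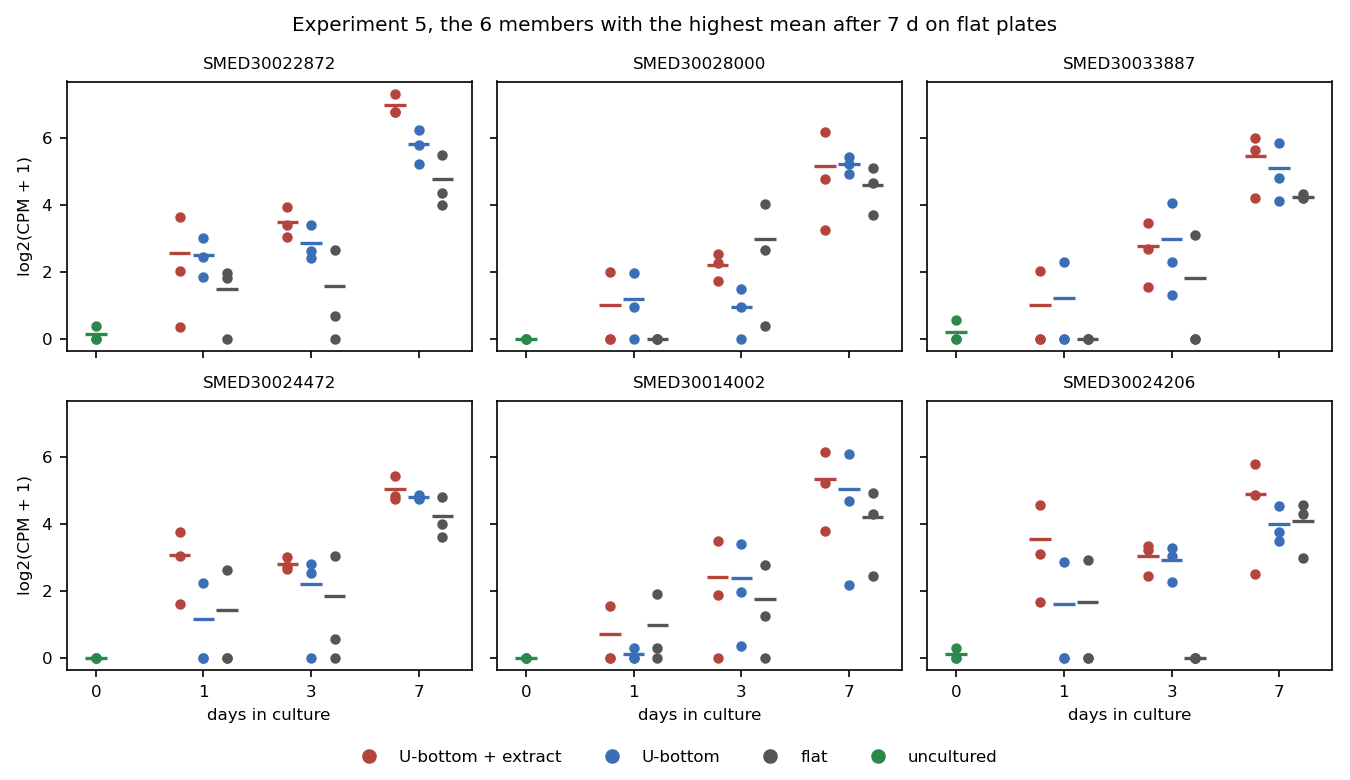
Level of the 6 members with the highest mean at 7 days on flat plates, as log2(CPM + 1), by day in experiment 5; points are libraries, bars are group means on the same scale, and colours mark U-bottom plates with extract, U-bottom plates, flat plates and uncultured cells. SMED30022872 is the highest at 7 days with extract (109, 109 and 158 CPM) and SMED30024206 is at 0 in all 3 flat libraries at 3 days.

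Among called members whose days did not overlap and whose mean over both days was at least 3 CPM, the 2 with the largest fitted log2 fold change in each plate type had 0 counts at 1 day. The order of fitted values is not an order of size. Their folds set the 7-day mean against 3 counts over the 1-day group, so they are lower bounds for the mean and not for each library. SMED30016775 had 69.3, 31.3 and 44.9 CPM at 7 days with extract, against 0 CPM in each 1-day library, at least 506-fold higher (adjusted p = 0.000943, edgeR). SMED30001170 had 36.2, 3.73 and 10.3 CPM, against 0 CPM in each, at least 174-fold higher (adjusted p = 0.00364, edgeR). Both calls were kept without any 1 library. SMED30005545 had 39.7, 27.8 and 8.03 CPM in U-bottom plates at 7 days, against 0 CPM in each 1-day library, at least 169-fold higher (adjusted p = 0.00415, edgeR), and was kept without any 1 library. SMED30024240 had 29.7, 7.58 and 16.1 CPM, against 0 CPM in each, at least 119-fold higher (adjusted p = 0.0278, edgeR). It was lost without replicate 1, 2 or 3 of the 1-day libraries (0.0675, 0.118 and 0.115) and without replicate 1 of the 7-day libraries (0.0652).

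On flat plates only the step from 1 to 3 days could be tested. In that step 0 members were called in either direction (edgeR), where 0.223% of all identifiers were called higher and 0.103% lower. At an unadjusted p under 0.05 there were 58 members, 29.3% of the 198 tested, against 12.7% of all identifiers. Most of the 198 passed the low-count filter only through other groups of the experiment. Fitted on the compared groups alone, 12 members could be tested and 0 of them had an unadjusted p under 0.05, against 11.7% of all identifiers, so the larger share is no result about the members. DESeq2 called 12 members higher and 1 lower, where it called 2.03% of all higher and 1.46% lower. In 7 members every 3-day library was above every 1-day library, against 5.47% of identifiers with a count. SMED30028000 had 15.1, 0.295 and 5.3 CPM at 3 days, against 0 CPM in each 1-day library (adjusted p = 0.0558, edgeR). Without replicate 3 of the 3-day libraries, 2 members were called.

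The extract itself was tested at each day against U-bottom plates without it. At 7 days 166 of the 200 members had a higher mean with extract, and the median log2 fold change was 1.24 over the members tested (1.88 without replicate 1 of the U-bottom plates without extract) and 0.24 over all identifiers. The share of all identifiers with a higher mean with extract was not taken at 1, 3 or 7 days, so such counts show no trait of the members. No member passed the test in either direction (0 higher and 0 lower with edgeR, where 0.939% of all identifiers were called higher and 5.07% lower). An unadjusted p under 0.05 was found for 3 members, 1.52% of those tested, against 18.7% of all identifiers, and in a fit of these 2 groups alone for 15 of 177, 8.47% against 15.7%. DESeq2 called 0 members, and 8.07% of all identifiers higher and 7.05% lower. In 27 members every library with extract was above every library without, against 6.12% of identifiers with a count, and in 1 member every one was below, against 12.3%. That member was SMED30013034, named after its values were seen, with 2.24, 0 and 5.91 CPM with extract, against 15.9, 15.0 and 6.2 CPM without. SMED30022872 was among the 27, with 109, 109 and 158 CPM with extract, against 74.2, 36.3 and 53.7 CPM without (log2 fold change 1.73, SE 0.95, adjusted p = 0.325, edgeR). For the other 5 of the top 6 the groups overlapped, and their adjusted p-values lay at or above 0.627 (edgeR).

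At 3 days 115 members had a higher mean with extract, and 0 were called (edgeR; 1.03% of all identifiers called higher and 1.83% lower; 33 members at an unadjusted p under 0.05, 16.7% of those tested, against 17.3% of all). Fitted on these 2 groups alone, 3 of 68 members had such a p, 4.41% against 21.5% of all. DESeq2 called 5 members higher and 1 lower, and 4.33% of all identifiers higher and 3.97% lower. Without replicate 2 of the libraries with extract, 1 member was called. At 1 day 141 members had a higher mean with extract, and 0 were called (edgeR; 1.1% higher and 0.798% lower of all; 59 members at an unadjusted p under 0.05, 29.8% of those tested, against 14.1% of all). Fitted on these 2 groups alone, 5 of 41 members had such a p, 12.2% against 18.7% of all, the other way round. DESeq2 called 14 members higher, and 3.5% of all identifiers higher and 2.39% lower. Without replicate 2 of the libraries with extract, 96 members had a higher mean with extract. The 1-day difference was compared only after the data were seen, and that replicate had a summed member level of 573 CPM, against 127 and 168 CPM in replicates 1 and 3. U-bottom against flat plates at 3 days gave 0 called members (edgeR; 0.00414% of all identifiers in each direction; 48 members at an unadjusted p under 0.05, 24.2% of those tested, against 11.7% of all). Fitted on these 2 groups alone, 3 of 38 members had such a p, 7.89% against 4.97% of all. DESeq2 called 8 members higher, and 1.27% of all identifiers higher and 0.87% lower. At 7 days the means were higher in U-bottom plates with extract than on flat plates for 162 members, and in U-bottom plates without extract for 118, both described without a test because the flat libraries chose the members.

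Most members were also present after short culture in experiments 1 and 2, at 1 or 2 days. By group mean, 168 members were above 1 CPM in aggregates and 173 in non-aggregating cells at 2 days, where 18.9% and 18.4% of the other silent identifiers were. There were 181 in AggreWell plates and 156 on flat plates at 1 day, beside 20.9% and 12.1% of the other silent identifiers. The median member mean was 3.97 CPM in aggregates, 4.72 CPM in non-aggregating cells, 5.65 CPM in AggreWell plates and 2.59 CPM on flat plates. These experiments have no uncultured cells, and their tables were made separately from those of experiments 3, 4 and 5, so the level of the members before culture in them is not known and levels are set side by side only as a description.

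AggreWell plates at 1 day had higher levels of the members than flat plates. In experiment 2, 31 members were higher and 0 lower (edgeR, adjusted p under 0.05), where 11.8% of all 18266 identifiers tested were higher and 9.15% lower. Of the 147 members tested, 146 had a positive log2 fold change, with a median of 1.29, against -0.02 over all identifiers. A low member could pass the low-count filter through the AggreWell libraries alone, which favours positive signs. The share of positive signs over all identifiers was not taken, so the 146 are a description. The mean was higher in AggreWell plates for 185 of the 200, and in 79 every AggreWell library lay above every flat library, against 15.0% of identifiers with a count, while 0 lay below, against 12.9%. For the 185, the share of all identifiers with a higher mean was not taken. The summed level was 1768 ± 315 CPM in AggreWell plates and 778 ± 184 CPM on flat plates (SD, n = 3 each). The summed level of the other silent identifiers was higher as well, at 8373 ± 798 CPM in AggreWell plates and 3978 ± 812 CPM on flat plates, so the members' share of the counts in all silent identifiers was close in both, 17.3% ± 1.29 and 16.3% ± 0.672. The count of calls was 5 without AggreWell replicate 2, 3 without flat replicate 1 and 16 without flat replicate 3.

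SMED30017234 had 6.43, 10.6 and 4.38 CPM in AggreWell plates, against 1.49, 1.76 and 1.3 CPM on flat plates, higher by 2.30 on the log2 scale (SE 0.67, adjusted p = 0.0247, edgeR). SMED30008945 had 22.9, 21.5 and 14.8 CPM, against 1.04, 9.65 and 3.14 CPM, higher by 2.18 (SE 0.60, adjusted p = 0.0182, edgeR). Neither overlapped with its flat libraries, and single libraries decided both calls. SMED30017234 was lost without AggreWell replicate 2 (0.16) and without flat replicate 1, 2 or 3 (0.0894, 0.0571 and 0.0736). SMED30008945 was lost without AggreWell replicate 2 (0.0833) and without flat replicate 1 or 3 (0.0792 and 0.0717). SMED30028000, also high at 7 days in experiment 5, had 20.9, 14.2 and 10.6 CPM in AggreWell plates, against 3.74, 8.23 and 5.37 CPM on flat plates (log2 fold change 1.47, SE 0.48, adjusted p = 0.0377, edgeR). It was lost without AggreWell replicate 1 or 2 (0.0952 and 0.103) and without flat replicate 1 or 3 (0.159 and 0.104). Of the 31 members higher in AggreWell plates, 10 were also among the 79 called over time in U-bottom plates with or without extract. The 79 were a larger share of all members than the 10 were of the 31, so this count shows no link between these calls.

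**Figure D3:**
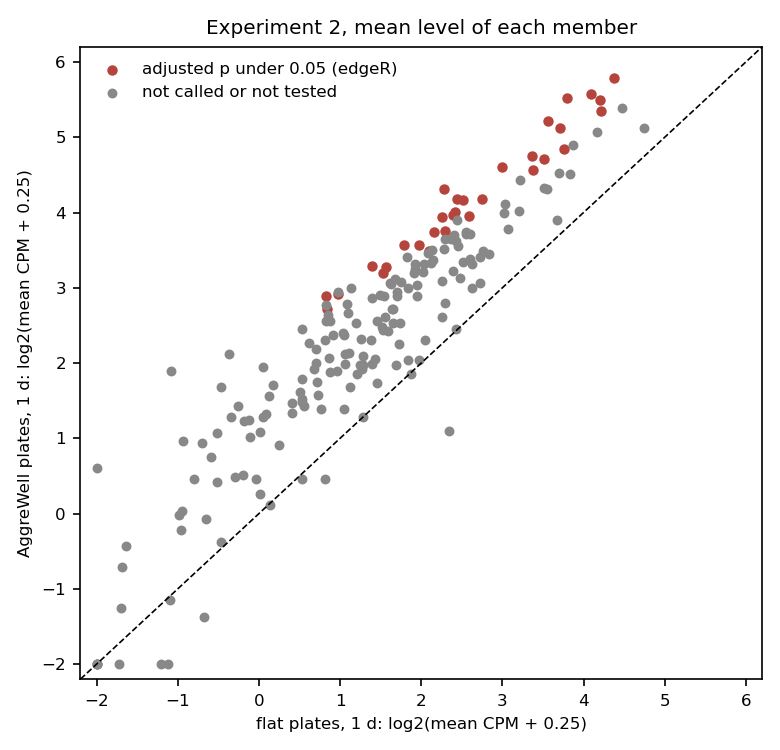
Mean level of each of the 200 members in AggreWell plates (vertical axis) and on flat plates (horizontal axis) at 1 day in experiment 2, both as log2(mean CPM + 0.25); red points passed edgeR's test and the dashed line marks equal means. Of the 200 means, 185 are higher in AggreWell plates, and the points lie in a band above the line at all levels.

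No member passed the test between aggregates and non-aggregating cells. In experiment 1, 0 of the 138 members tested were called (edgeR; 0% of all 18241 identifiers in each direction; 1 member at an unadjusted p under 0.05, 0.725% of those tested, against 1.67% of all). DESeq2 called 0 members, and 0.011% of all identifiers higher and 0% lower. The median log2 fold change was 0.04 over members and 0.08 over all identifiers. The sign of the members' median rested on single libraries. It was -0.60 without aggregate replicate 1, 0.35 without aggregate replicate 2, 0.32 without replicate 1 of non-aggregating cells and -0.12 without replicate 3 of non-aggregating cells, and 0.04 and 0.02 without the others. The summed level was 1294 ± 686 CPM in aggregates and 1414 ± 321 CPM in non-aggregating cells (SD, n = 3 each), and 86 members had the higher mean in aggregates. SMED30022872 had 7.72, 8.16 and 19.5 CPM in aggregates, against 4.63, 7.22 and 11.4 CPM in non-aggregating cells, which overlapped.

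In experiment 3 the members were nearly off in all culture conditions up to 3 days. In U-bottom plates 8 members averaged over 1 CPM at 1 day and 13 at 3 days, where 1.21% and 2.51% of the other silent identifiers did, and the 3-day number was 7 without replicate 2. On PA gel there were 6, 8 and 8 at 1, 2 and 3 days, beside 0.902%, 1.39% and 1.59%. On flat plates there were 14, 10 and 12, beside 2.11%, 2.8% and 2.6%. The summed level ran from 32.1 to 47.2 CPM over the cultured groups, against 20.8 ± 2.69 CPM in uncultured cells (SD, n = 3). Of the 200 members, 27 had 0 counts in all 23 cultured libraries. On flat plates at 1 day the summed member level was 778 ± 184 CPM in experiment 2, 47.2 ± 10.4 CPM in experiment 3, 228 ± 224 CPM in experiment 4 (98.8 ± 17.3 CPM without replicate 2, n = 2) and 56.3 ± 20.1 CPM in experiment 5 (SD, n = 3 each). Experiment 2 was thus well above the others, a contrast between experiments whose tables were made separately and that was not tested.

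Only 11 members passed the low-count filter in experiment 3. SMED30035027 rose between 1 and 3 days on flat plates, with 6.88, 0.589 and 3.84 CPM at 3 days, against 0, 0 and 0.111 CPM at 1 day (log2 fold change 5.91, SE 1.52, adjusted p = 0.0217, edgeR), the 1 call among members where 2.32% of all 20949 identifiers were higher and 1.96% lower. DESeq2 also called 1 member higher, and 3.46% of all identifiers higher and 3.44% lower. SMED30035027 was named after its values were seen, and 0 members were called without 1-day replicate 1, 2 or 3 or without 3-day replicate 1. U-bottom plates against flat plates at 3 days gave 0 calls (edgeR; 0.568% of all higher and 0.516% lower; 2 members at an unadjusted p under 0.05, 18.2% of those tested, against 15.7% of all; 0 with DESeq2, where 1.76% of all were higher and 1.41% lower), and 1 lower without U-bottom replicate 2. PA gel against flat plates at 3 days gave 0 (edgeR; 0.0477% higher and 0.0716% lower; 0 members at an unadjusted p under 0.05, against 11.8% of all). DESeq2 gave no member an adjusted p there, and called 1.07% of all identifiers higher and 0.96% lower. The member with the highest group mean in experiment 3 was SMED30014073, picked out after its values were seen, with 8.68, 6.38 and 2.6 CPM on flat plates at 3 days, against 0.844, 2.33 and 0.813 CPM at 1 day. The same transcript was at 0 CPM in all 3 AggreWell libraries, against 0, 0 and 0.553 CPM on flat plates of experiment 2. It was also at 0 CPM in all 3 aggregate libraries, against 0.347, 7.09 and 2.59 CPM in non-aggregating cells.

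SMED30019909 and SMED30001596 had the highest minimum over the flat libraries at 3 days of experiments 3 and 4. SMED30019909 had 1.18, 0.577 and 0.447 CPM in experiment 3 and 3.19, 4.08 and 5.96 CPM in experiment 4. SMED30001596 had 0.685, 1.18 and 1.4 CPM in experiment 3 and 0.797, 2.37 and 0.431 CPM in experiment 4. SMED30001596 had higher values in experiment 2, with 65.0, 55.2 and 45.3 CPM in AggreWell plates, against 13.6, 28.9 and 19.1 CPM on flat plates. Neither exceeded 1.4 CPM in these 3 libraries of experiment 3.

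**Figure D4:**
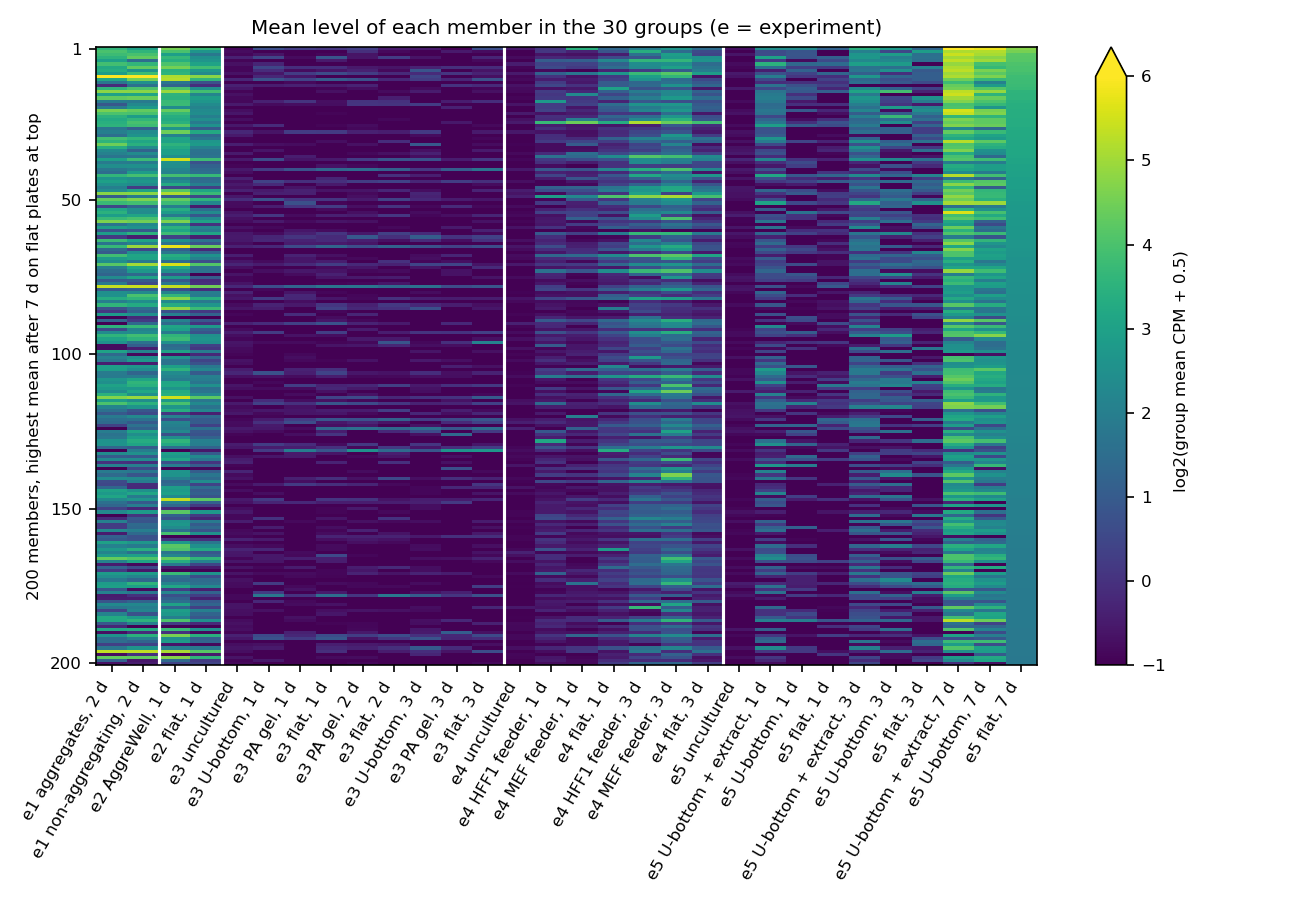
Mean level of each of the 200 members (rows, highest flat mean at 7 days at the top) in the 30 groups (columns, e1 to e5 for the experiments), as log2(group mean CPM + 0.5); white lines separate the experiments. The members are bright in experiments 1 and 2 and at 7 days in experiment 5, mostly dark in experiment 3, and intermediate at 3 days on feeders in experiment 4.

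In experiment 4 more members were present on feeders than on flat plates at 3 days, and no member passed the test of that difference. By group mean, 126 members were above 1 CPM on HFF1 feeders at 3 days, 157 on MEF feeders and 75 on flat plates, beside 19.9%, 32.5% and 6.36% of the other silent identifiers. At 1 day the numbers were 23, 26 and 63, beside 1.62%, 1.28% and 3.45%. Without HFF1 replicate 1 the 1-day number on HFF1 feeders was 7, and without flat replicate 2 the 1-day number on flat plates was 20. The summed level at 3 days was 553 ± 124 CPM on HFF1 feeders, 810 ± 493 CPM on MEF feeders and 261 ± 141 CPM on flat plates (SD, n = 3 each). At 3 days 177 members had a higher mean on HFF1 feeders than on flat plates and 181 on MEF feeders than on flat plates. The share of all identifiers with a higher mean was not taken, so these counts show no trait of the members. Each comparison gave 0 called members with edgeR. For HFF1 feeders 0.00383% of all 26107 identifiers were called higher and 0% lower, and 5 members had an unadjusted p under 0.05, 3.14% of those tested, against 6.07% of all (7 of 102 in a fit of the 2 groups alone, 6.86% against 10.5%). DESeq2 called 2 members higher, and 0.524% of all identifiers higher and 0.513% lower. For MEF feeders 0% of all were called in each direction, and 12 members had an unadjusted p under 0.05, 7.55% of those tested, against 8.67% of all (7 of 102 in a fit of the 2 groups alone, 6.86% against 8.95%). DESeq2 called 3 members higher, and 1.8% of all identifiers higher and 0.877% lower. The median log2 fold changes of the 159 members tested were 0.78 for HFF1 and 1.24 for MEF feeders, against 0.39 and 0.63 over all identifiers. Without flat replicate 3 of 3 days the members' medians were 0.42 and 0.64, and without MEF replicate 1 the MEF value was 0.71. With RLE scaling they were 1.02 and 1.80, against 0.64 and 1.17 over all identifiers. Without MEF replicate 3, 169 members averaged over 1 CPM on MEF feeders at 3 days, the summed level was 1082 ± 204 CPM (SD, n = 2), and 187 members had a higher mean than on flat plates. In 46 members every HFF1 library lay above every flat library, against 13.5% of identifiers with a count, and in 0 below, against 3.12%. For MEF feeders 26 lay above, against 8.42%, and 1 below, against 4.27%. Without MEF replicate 3, 119 lay above, against 37.5%.

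Between 1 and 3 days, compared only after the data were seen, 6 members rose on MEF feeders and 0 fell (edgeR, adjusted p under 0.05), where 0.709% of all identifiers were higher and 0.862% lower. DESeq2 called 84 members higher, and 31.2% of all identifiers higher and 3.28% lower. With RLE scaling edgeR called 14, and with the replicate number as a block 1. All 6 had 0 counts at 1 day. The median log2 fold change was 2.62 over the members tested, and 1.44 over all identifiers. With RLE scaling in place of TMM these medians were 3.41 and 2.18, and in a fit of the 2 groups alone 2.71 and -0.12. That fit tested 50 members. A low member could pass its filter through the 3-day libraries alone, which favours positive values, so its median is a description. SMED30028060 had 19.6, 4.33 and 0.242 CPM on MEF feeders at 3 days, against 0 CPM in each 1-day library (adjusted p = 0.0449, edgeR). Its mean was at least 91.4-fold higher, set against 3 counts over the 1-day group. Replicate 3 lay below the level of 3 counts in that library (0.363 CPM), so the fold holds for the mean only. The count of 6 was 0 without any 1 of the MEF libraries except replicate 3 of 3 days, and 13 without that library. On HFF1 feeders 0 members were called (edgeR; 0.00383% higher and 0.0115% lower of all; 19 members at an unadjusted p under 0.05, 11.9% of those tested, against 17.4% of all). In a fit of these 2 groups alone the count was 23 of 87, 26.4% against 22.5% of all, with the same limit from the filter. DESeq2 called 12 members higher, and 5.77% of all identifiers higher and 1.56% lower. The median was 1.93 over members and 0.94 over all. In 111 members every HFF1 library at 3 days lay above every one at 1 day, against 33.5% of identifiers with a count, and in 99 members on MEF feeders, against 28.9%. Without HFF1 replicate 1 of 1 day the first number was 150, against 44%, and without MEF replicate 3 of 3 days the second was 153, against 48.9%. The change on MEF feeders did not pass as different from that on flat plates for any member (interaction chosen after the data were seen, 0 members, smallest adjusted p = 0.153, edgeR; 0% of all called; 27 members at an unadjusted p under 0.05, 17% of those tested, against 17.5% of all). Without MEF replicate 3 of 3 days, 1 member was called (adjusted p = 0.0458, edgeR). The change on HFF1 feeders did not pass either (0 members, smallest adjusted p = 0.295, edgeR; 0% of all called; 12 members at an unadjusted p under 0.05, 7.55% of those tested, against 9.84% of all).

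The members were also a changing share of the silent transcripts as a whole. Of the counts in all 8741 silent identifiers, the members held 30.7% ± 2.49 in U-bottom plates with extract at 7 days and 31.5% ± 2.22 in U-bottom plates at 7 days (SD, n = 3 each). Group means of this share lay between 16.3% and 18.3% in experiments 1 and 2, between 7.74% and 10.2% on the plates and feeders of experiment 4, and between 3.23% and 4.49% in the cultured groups of experiment 3. In uncultured cells it was 3.87% ± 0.36 in experiment 3, 5.09% ± 1.01 in experiment 4 and 4.99% ± 0.42 in experiment 5. The experiments thus differed in this share as well as in the summed level. In MEF feeders at 3 days, replicate 2 had 86.5% of the members and 46.1% of the other silent identifiers above 1 CPM, the highest share of the other silent identifiers in any library.

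**Figure D5:**
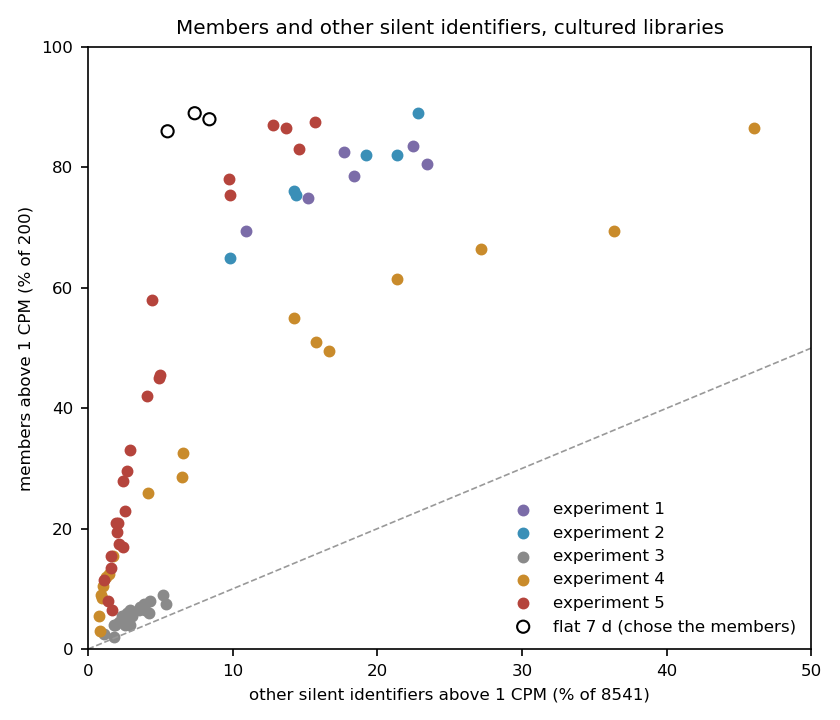
Percent of the 200 members above 1 CPM (vertical axis) against percent of the other 8541 silent identifiers above 1 CPM (horizontal axis) in each cultured library; colours mark experiments, open circles the 3 flat libraries at 7 days that chose the members, and the dashed line equal percentages. The upper points of experiment 4 lie further right than those of experiment 5 at the same height, and the libraries of experiment 3 lie close to the line.

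Members were often on in several experiments. A cultured group mean above 1 CPM was reached by 182 members in experiment 1, 181 in experiment 2, 32 in experiment 3 and 169 in experiment 4, and by 24.7%, 22.2%, 7.22% and 38.4% of the other silent identifiers. At 7 days 181 were above 1 CPM both in U-bottom plates with extract and in U-bottom plates without it, beside 7.34% of the other silent identifiers. For 146 members, at least 1 cultured group of each of experiments 1, 2 and 4 and both U-bottom plate types at 7 days were above 1 CPM, as for 3.24% of the other silent identifiers. Of the 146, 26 also reached it in experiment 3 and 120 did not. Another 23 were on in experiments 1 and 2 and in neither experiment 3 nor 4, beside 6.42% of the other silent identifiers. SMED30010980, named after its values were seen, was the 1 member on in none of experiments 1 to 4, with a highest group mean of 0.803 CPM there, against 3.71, 0.617 and 4.82 CPM on flat plates at 7 days.

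By contrast, 5 members averaged 1 CPM or less in both U-bottom plate types at 7 days, again named after their values were seen. SMED30008724 had 2.43, 3.55 and 4.97 CPM on flat plates at 7 days and 0 CPM in all 6 U-bottom libraries of that day. SMED30001773 had 2.94, 4.63 and 2.63 CPM on flat plates, and a mean of 0.115 CPM in U-bottom plates with extract and 0 CPM without. SMED30029543 had 4.86, 0 and 8.77 CPM on flat plates, SMED30007553 had 3.71, 7.26 and 0 CPM, and SMED30011899 is the member at the lower limit given above. Since the flat libraries chose these members, these contrasts are a description, and 3 of the 5 rest on flat libraries that differ widely among themselves.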

How the data were processed

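Expression was deposited by the authors as 1 table per experiment. The authors deposited estimated counts for experiments 1 to 3, per the labels and the values, and whole counts for experiments 4 and 5, in both cases with no normalization by depth. Of the non-zero values of experiments 1 to 3, 99.7% were not whole (tolerance 0.001), and 0% in experiments 4 and 5. The submitters' processing notes name kallisto 0.46.2 and R 4.0.5 and assign them no step. The transcriptome and build were not given in the sources used here. Each column was matched to a sample.

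Levels in the text are CPM outside 4 abundant identifiers (Python, pandas 2.3.3). Tests used the whole tables, with estimated counts rounded. Identifiers were filtered with filterByExpr by group, scaled by the trimmed mean of M values (TMM), and fitted over all groups of an experiment at once with edgeR 4.0.16 (quasi-likelihood F test, two-sided, Benjamini-Hochberg threshold 0.05, R 4.3.3). Standard errors (SE) are the size of the log2 fold change over the root of the F statistic. The code was tested on simulated data. DESeq2 1.42.0, RLE size factors, no filter, a replicate block, only the compared groups, leaving out the 4 identifiers and leaving out each library were alternatives.

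The members and lists were chosen with earlier results of these data known. Marker lists fixed by gene name matched 0 identifiers. Named members were the 6 highest on flat plates at 7 days, those at the limit of the choice, per comparison the 2 largest called changes in each direction without overlap and with a mean of at least 3 CPM over the libraries of both groups, and the 2 with the highest minimum over the flat libraries at 3 days of experiments 3 and 4. Comparisons of HFF1 and MEF feeders over time, of the extract at 1 day, and the interactions were added after seeing the data. Correlations of the deviations of same-numbered libraries were above 0.1 in all 3 pairs (0.313, 0.274 and 0.396) only for flat plates at 3 days against 1 day in experiment 3, where the block left 1 call as without it. The numbers are those of the sample titles. The columns of that 3-day group are numbered otherwise, so the pairing there depends on the numbering. No 2 libraries of a group agreed within sampling noise (chi-square per degree of freedom at least 6.53).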

Additional observations from a re-analysis of the deposited data

How the results depend on the processing

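Among the 6 highest members and those named for the largest called changes, no called log2 fold change changed sign under the alternatives run. The signs of other named members, SMED30035027 among them, were not compared. Medians over members that were near 0 did. For aggregates the median was -0.20 with the replicate block and 0.00 without a low-count filter, and it ran from -0.60 to 0.35 with 1 library left out. The choice of members depended on its own limits. CPM over the whole library gave 93 identifiers (35 of them among the 200), a ceiling of 0.25 CPM left 83, and asking all 3 flat libraries at 7 days to be above 1 CPM left 126. Leaving out 1 flat library at a time gave 161 to 181.

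Counts of called members moved by over 1.5 times as follows, and the cause was not tested. DESeq2 called 106 members higher in U-bottom plates with extract at 7 days against 1 day (22.9% of all identifiers), 101 without extract (15.3%), 50 in AggreWell plates against flat plates (16%), and 84 on MEF feeders (31.2%) and 12 on HFF1 feeders (5.77%) at 3 days against 1 day. It called 3 for MEF and 2 for HFF1 feeders against flat plates, 13 on flat plates of experiment 5 at 3 days against 1 day, 8 for U-bottom against flat plates at 3 days, and 6 and 14 for the extract at 3 days and 1 day. Without a low-count filter the counts were 80 in U-bottom plates with extract over time, 88 without, 16 on flat plates, 7 for U-bottom against flat plates, 9 for the extract at 3 days and 9 at 1 day, and 1 on MEF feeders over time. RLE scaling gave 14 on MEF feeders over time and 1 on flat plates. Without the 4 abundant identifiers these were 0 and 1. Fits of the 2 compared groups alone gave 0 calls for flat plates of experiment 3 over time, and 0 on MEF feeders over time.

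Leaving out 1 library gave 16 to 53 calls in U-bottom plates with extract over time, 12 to 50 without, 3 to 36 for AggreWell plates, 0 to 13 on MEF feeders over time, 0 to 2 on flat plates of experiment 5 over time, and 0 to 1 for flat plates of experiment 3 over time, U-bottom against flat plates in experiment 3, the extract at 3 days, and the differences of the changes over days between the extract and U-bottom plates and between MEF feeders and flat plates. It gave 0 in each of the other comparisons.

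With a replicate block, the counts were 11 for AggreWell plates, 1 on MEF feeders over time and 1 on flat plates of experiment 5 over time, 49 and 55 in U-bottom plates with and without extract over time, and it changed no other call. Whether same-numbered libraries share anything beyond the number is not stated.

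RLE scaling moved the median log2 fold change of all identifiers from that of TMM mainly in experiments 4 and 5, to 2.18 on MEF feeders over time (1.44 with TMM), and to 0.68 for the extract at 7 days (0.24 with TMM), where the members' median was 1.69. Of the log2 fold changes of single named members under alternatives, 318 kept the side of the threshold, 33 fell short of it and 12 newly passed it. Direction was compared only for members called in the main fit. In experiment 3, 11 members could be tested, with 2322763 to 9979185 counts per library outside the 4 abundant identifiers. In experiments 1 and 2, with 3560651 to 7173337 such counts, 138 and 147 could be.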
